A study of Rattus norvegicus with 12 samples.

Results

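Collagen genes and the genes whose products modify, fold, trim and cross-link collagen were followed across rat fracture hematoma and femur. The family was taken by gene symbol: every collagen alpha-chain symbol (Col, a number, a, a number) and 16 named processing genes. The files held 36 of these among 17379 features, 22 collagen chains and 14 processing genes. Lox, Pcolce2 and chains such as Col10a1, Col12a1, Col5a2, Col6a1 and Col4a2 were not analysed here. All 36 passed the filter on low counts in both fits used below.

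RNA was sequenced from 12 libraries of male SAS Fischer rats of 200 to 225 g, 3 libraries in each of 4 groups. Nonunion was hematoma from a femoral defect of 5.0 mm, delayed was hematoma from a defect of 1.5 mm, and normal was hematoma from a defect of 0.5 mm. PreOP was untreated femur, the healthy bone piece taken out when a 5.0 mm defect was made. The time between surgery and collection is not given in the labels used here, and the labels do not say whether each library came from its own rat, so p-values measure the spread between these libraries.

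Collagens are triple helices of alpha chains. Types I, II and III make the main fibrils of bone, cartilage and soft granulation tissue, types V and XI sit inside those fibrils and set their width, type IX coats cartilage fibrils, and types IV, XV and XVIII belong to basement membranes. Inside the cell prolyl and lysyl hydroxylases modify the chains and a chaperone holds the helix. Outside it the propeptides are cut off and lysyl oxidases cross-link the fibrils. In fracture repair, a cartilage callus rich in types II, IX and XI and a bone matrix rich in type I are well known.

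Libraries held 16808993 to 24325162 estimated reads, of which the 36 genes took 0.759% to 2.73% in nonunion, 1.95% to 6.49% in delayed, 4.23% to 7.82% in normal and 0.466% to 0.596% in preOP. Nonunion 2 stood apart, with ribosomal RNA at 72.2% of reads where no other library passed 1.75%, and with 7 adipocyte markers summing to 13930 CPM, the TMM-scaled count per 1000000 reads, against at most 1669 CPM elsewhere. Delayed 2 carried 35420 CPM over 9 skeletal muscle markers, against at most 10020 CPM elsewhere. PreOP libraries carried 15.7% to 24.0% of reads on globin. The median gap between the annotated and the effective transcript length was 157 to 192 bases in normal and 194 to 255 bases in the other libraries, and the normal files are written with other decimals. Group and library preparation or processing cannot be told apart there. Against the tissue labels, 8 osteoblast markers summed to 477 to 568 CPM in preOP femur, and 8 macrophage markers summed to 1598 to 2004 CPM in nonunion, 1088 to 2370 CPM in delayed, and 1183 to 1729 CPM in normal hematoma. The osteoblast sum was higher in normal hematoma than in femur, at 1490 to 1792 CPM. The macrophage sum was 535 to 927 CPM in preOP. In tissue RNA of this kind, fewer cells of a type and less RNA per cell cannot be told apart.

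Hematoma from the larger defects carried less RNA of cartilage collagens, of the transmembrane collagen Col13a1 and of the processing gene Crtap than normal hematoma. In nonunion against normal, Col11a2, Col13a1, Col2a1, Col9a1, Col9a2 and Crtap fell, with log2 fold changes of -9.39 to -1.68. In delayed against normal, Col11a2, Col13a1, Col11a1, Col9a1, Col9a2 and Crtap fell, with log2 fold changes of -6.30 to -1.55. No member of the family rose in either comparison.

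Calls were made with edgeR's quasi-likelihood test at a Benjamini-Hochberg adjusted p below 0.05 over all 12474 genes tested. In nonunion against normal, 6 of 36 genes (16.7%) were called lower and 0 higher, where 1.48% of all genes were called lower, 0.89% higher and 2.37% in either direction. In delayed against normal, 6 of 36 (16.7%) were called lower and 0 higher, where 4.45% of all genes were called lower, 2.68% higher and 7.13% in either direction. The median log2 fold change of the family was -0.80 in nonunion against normal, beside -0.03 over all genes, and -0.90 in delayed against normal, beside 0.02 over all genes. All 3 libraries lay below all 3 normal libraries for 15 of 36 genes in nonunion (15.5% of all genes) and for 16 of 36 in delayed (20.4% of all genes). They lay above for 1 gene in nonunion (14.1% of all genes) and for 2 in delayed (16.1% of all genes). Groups did not overlap, in either direction, for 29.6% of all genes in nonunion against normal and 36.5% in delayed against normal. Both comparisons share the 3 normal libraries, so they are not independent of each other.

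These counts moved with the libraries used. In nonunion against normal the member count was 1 without normal 1, normal 3, nonunion 1 or nonunion 3, and 2 without normal 2 or nonunion 2. Over all genes, 296 were called in the main fit, and 36 without normal 1, 80 without normal 2 and 36 without normal 3. The count was 57 without nonunion 1, 159 without nonunion 2 and 23 without nonunion 3. In delayed against normal, 2 members were called without normal 1, normal 3 or delayed 1, 3 without normal 2 and 4 without nonunion 3. Without nonunion 2, a library of neither group that enters the shared estimate of spread, 9 were called. Over all genes the 889 calls became 208 without normal 1, 268 without normal 2, 176 without normal 3 and 188 without delayed 1. They became 542 without nonunion 3 and 1433 without nonunion 2. Without delayed 2 and nonunion 2 together, 6 members were lower and 0 higher in nonunion against normal, and 8 were lower and 4 higher in delayed against normal. Of all 12627 genes tested there, 429 and 2076 were called in the same order.

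**Figure D1:**
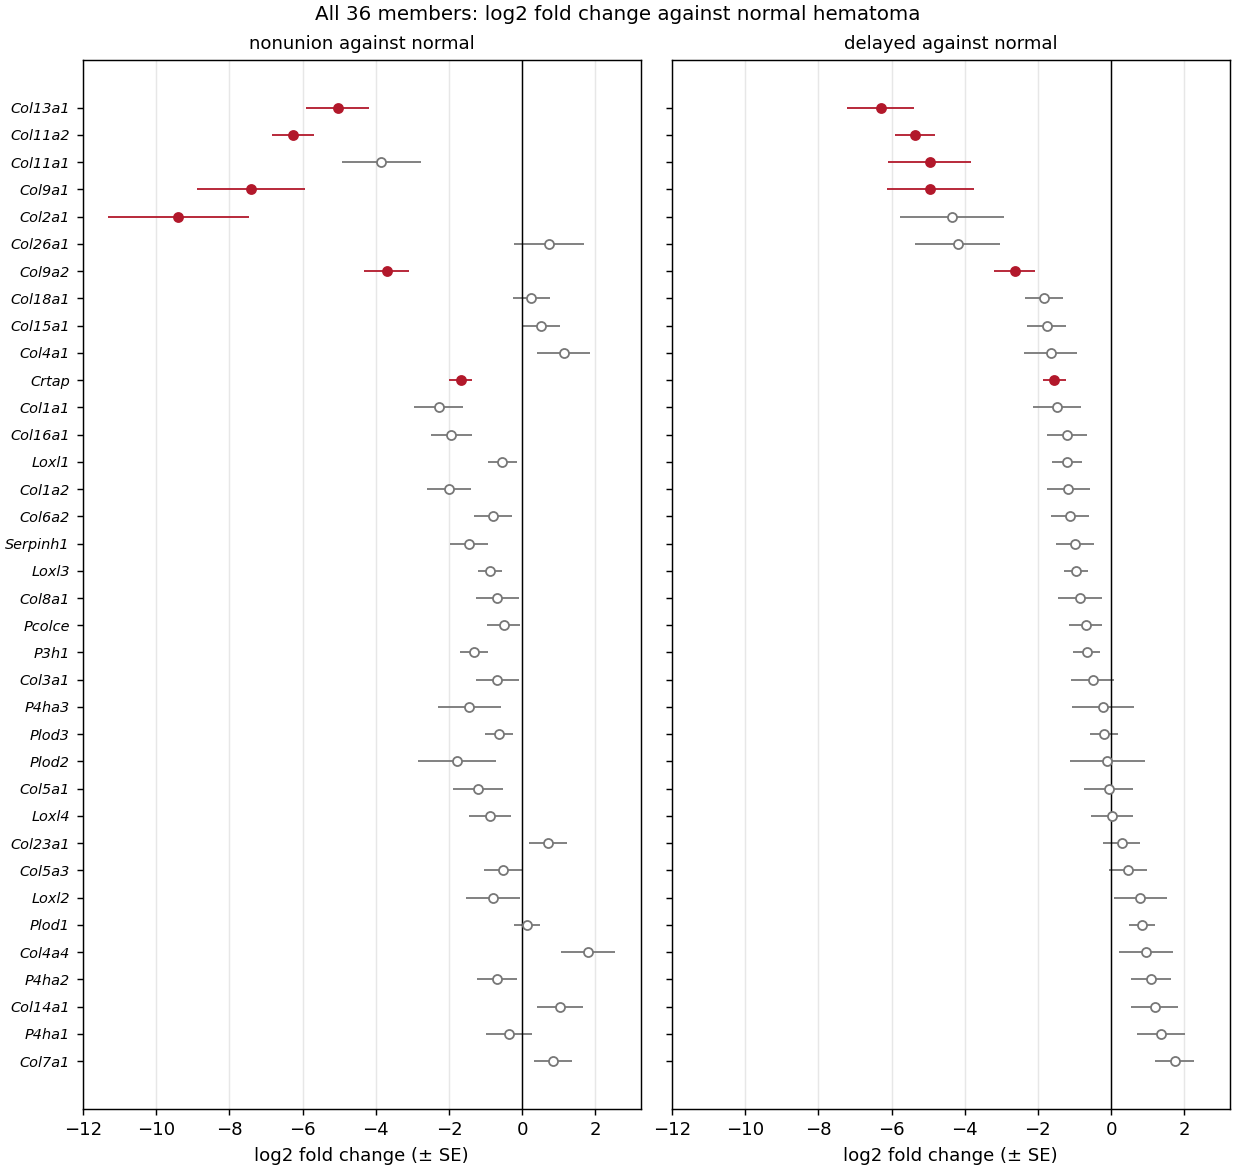
Log2 fold change (± SE) of all 36 genes in nonunion against normal (left) and delayed against normal (right), 3 libraries a group, ordered by the value in delayed. Filled red points are genes called at an adjusted p below 0.05, and the 6 called in each panel all lie left of 0.

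Type XI collagen forms the core of cartilage fibrils. Its chain gene Col11a2 stood at 1.11, 3.08 and 1.20 CPM in nonunion, 2.42, 4.64 and 2.14 CPM in delayed, 81.9, 123 and 163 CPM in normal and 80.4, 100.5 and 59.3 CPM in preOP. Every nonunion and delayed library lay far below every normal and preOP library, and nonunion overlapped delayed as normal overlapped preOP. Col11a2 fell in nonunion against normal, with a log2 fold change of -6.26 (SE 0.57, edgeR adjusted p = 0.0015), and in delayed against normal, with -5.36 (SE 0.54, adjusted p = 0.0025). Both calls held in all 16 alternatives, each library left out in turn included.

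The partner chain gene Col11a1 stood at 100.4, 2.62 and 44.3 CPM in nonunion, 12.1, 22.8 and 31.1 CPM in delayed, 760.0, 284 and 959 CPM in normal and 89.0, 87.8 and 116 CPM in preOP. All larger-defect libraries lay below normal, and the nonunion libraries were widely spread, with nonunion 1 inside the preOP range. Col11a1 fell by 4.96 in delayed against normal (SE 1.13, edgeR adjusted p = 0.036), a call lost when any normal or delayed library or nonunion 3 was left out (adjusted p up to 0.11). In nonunion against normal its log2 fold change was -3.84 (SE 1.07, adjusted p = 0.095), which did not pass. It passed with DESeq2, at -3.76 (adjusted p = 0.0014). Col11a1 was also higher in normal hematoma than in preOP femur, by 2.78 on the log2 scale (SE 0.91, adjusted p = 0.030, a call lost without normal 1, normal 3 or any preOP library, with adjusted p up to 0.084).

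Col13a1 encodes a transmembrane collagen found at cell contacts and at the neuromuscular junction. It stood at 0.395, 1.54 and 0.165 CPM in nonunion (10, 10 and 4 reads), 0.0768, 0.464 and 0.202 CPM in delayed (2, 9 and 5 reads), 14.4, 20.0 and 22.7 CPM in normal (287, 326 and 503 reads) and 10.5, 13.0 and 19.0 CPM in preOP (213, 276 and 309 reads). Like Col11a2, it split the libraries into a low pair of groups, nonunion and delayed, and a high pair, normal and preOP, with no library between. Col13a1 fell in nonunion against normal, with a log2 fold change of -5.04 (SE 0.87, edgeR adjusted p = 0.027), and in delayed against normal, with -6.30 (SE 0.91, adjusted p = 0.0094). The delayed call held in all 16 alternatives. The nonunion call was lost without any normal library, nonunion 1 or nonunion 3 (adjusted p up to 0.10).

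Col11a2 and Col13a1 shared this pattern, and their promoters are shown for that reason. Each sequence below is the 250 bases before the annotated start in RefSeq for build GRCr8, read along the gene's strand, with searched motifs in capitals. Col11a2 (chr20:4817649-4817898, minus strand) has the Sp-factor motif GGGCGG in capitals at 3 places, of which 2 overlap. Col13a1 (chr20:30466801-30467050, minus strand) has 1 copy of TATAAA, the letters of the TATA box, in capitals. That copy begins 237 bases before the start.
Col11a2: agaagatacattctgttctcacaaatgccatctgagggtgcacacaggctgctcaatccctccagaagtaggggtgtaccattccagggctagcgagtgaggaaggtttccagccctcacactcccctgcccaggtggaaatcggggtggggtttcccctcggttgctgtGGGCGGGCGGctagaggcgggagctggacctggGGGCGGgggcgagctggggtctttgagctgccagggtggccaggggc
Col13a1: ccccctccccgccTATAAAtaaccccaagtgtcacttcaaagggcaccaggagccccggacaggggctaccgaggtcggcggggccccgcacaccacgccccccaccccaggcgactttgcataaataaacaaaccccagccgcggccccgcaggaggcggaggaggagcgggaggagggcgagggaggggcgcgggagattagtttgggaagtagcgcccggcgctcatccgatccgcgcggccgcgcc
On both strands of windows of 250 bases before to 50 after the start, GGGCGG was found in 21 of the 30 members with a promoter in the table and in 33.1% of all 33469 promoters, and TATAAA in 3 of 30 members and 14.2% of all promoters. ACAATG, a SOX core, was found in 0 of 30 members and 13.2% of all promoters. Members with no matched promoter, which include Col1a1, Col2a1 and Col3a1, were not searched. These are matches of letters, not binding sites.

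Type II collagen is the main fibril of cartilage. Col2a1 stood at 0.0395, 0 and 0.207 CPM in nonunion (1, 0 and 5 reads), 0.192, 10.6 and 0.161 CPM in delayed (5, 206 and 4 reads), 75.7, 31.5 and 102 CPM in normal (1510, 515 and 2267 reads) and 0.444, 0.849 and 0.925 CPM in preOP (9, 18 and 15 reads). Normal hematoma was the high group. Delayed 2 held 206 of the 215 delayed reads, and it was the library with the high muscle marker sum. Its sum over 8 chondrocyte markers outside the collagens, 16.3 CPM, was below the 31.9 and 32.9 CPM of the other delayed libraries. Acan made up most of each of these sums and, like Sox9, was lowest in delayed 2. Among the delayed libraries Comp, Hapln1, Ihh and Cnmd were highest in delayed 2, Matn1 lay between, and Epyc had no reads. Col9a1, Col9a2 and Col11a2 were also highest in delayed 2, and Col11a1 was highest in delayed 3. Col2a1 fell in nonunion against normal, with a log2 fold change of -9.39 (SE 1.92, edgeR adjusted p = 0.042), a call lost without any normal or nonunion library (adjusted p up to 0.13). In delayed against normal its log2 fold change was -4.35 (SE 1.43, adjusted p = 0.099). Without delayed 2 and nonunion 2 that value was -8.51 (adjusted p = 0.0025). It also passed without delayed 2 alone and with DESeq2.

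Type IX collagen coats the type II fibril. Col9a1 had 0, 0 and 1 reads in nonunion, 0, 7 and 1 reads in delayed, 60, 28 and 150 reads in normal and 8, 10 and 3 reads in preOP, which in normal came to 3.01, 1.71 and 6.76 CPM. Col9a1 fell in delayed against normal, with a log2 fold change of -4.94 (SE 1.18, edgeR adjusted p = 0.041). It also fell in nonunion against normal (adjusted p = 0.039), where its fitted value rests on 1 read. The pooled ratio of nonunion over normal was 0.00439, with an exact 95% interval of 0.000111 to 0.0247 that covers counting error only.

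Col9a2 stood at 0.554, 0.462 and 0.290 CPM in nonunion, 0.576, 1.44 and 0.645 CPM in delayed, 3.31, 4.90 and 7.93 CPM in normal and 0.444, 1.18 and 0.986 CPM in preOP. Normal again lay above all others, and the other groups spanned a similar low range. Col9a2 fell in nonunion against normal, at -3.69 (SE 0.62, edgeR adjusted p = 0.024), and in delayed against normal, at -2.64 (SE 0.57, adjusted p = 0.031). The nonunion calls of Col9a1 and Col9a2 were lost without any normal or nonunion library, that of Col9a1 also without delayed 3. The delayed calls were lost without any normal library, delayed 1 or delayed 3, that of Col9a1 also without nonunion 1 or nonunion 3, or with no filter on low counts. The adjusted p reached 0.13 for Col9a1 and 0.11 for Col9a2.

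**Figure D2:**
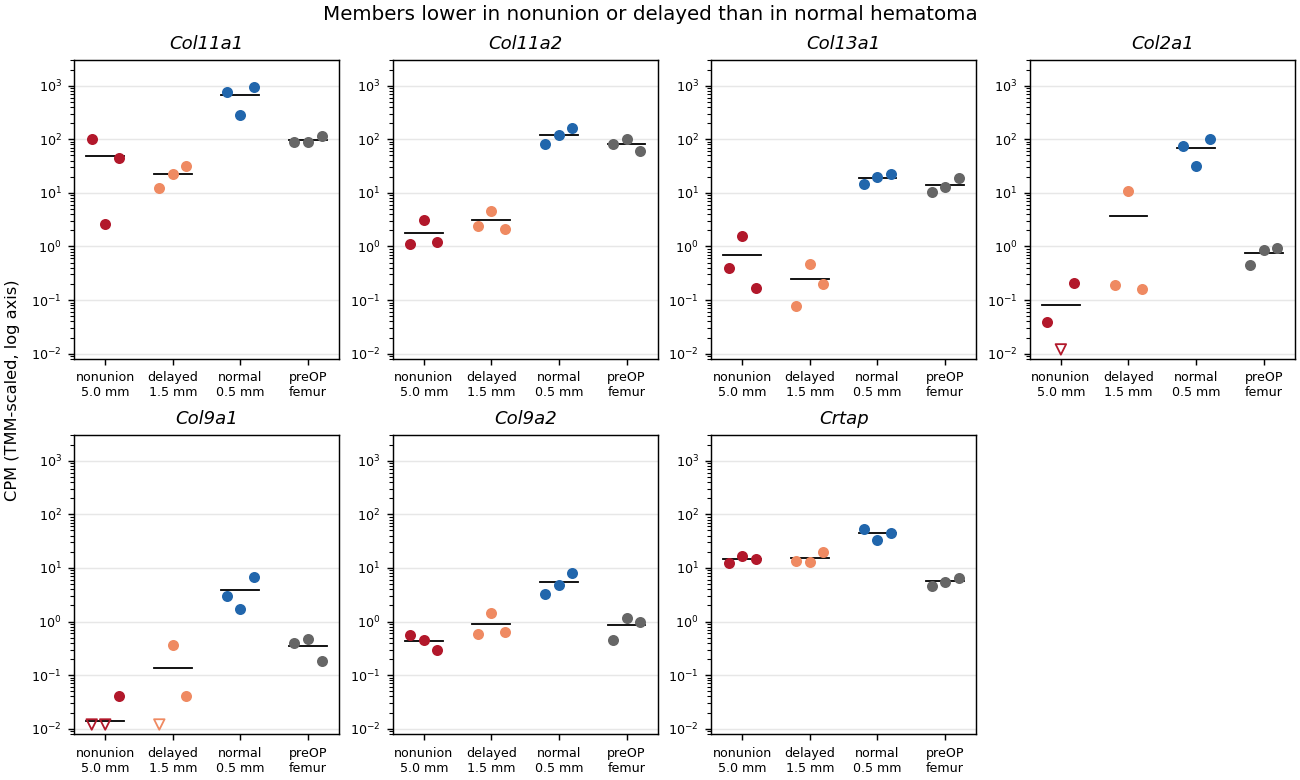
TMM-scaled CPM on a log axis for the 7 genes called lower in nonunion or delayed against normal, 1 point a library and a black line at the mean of 3. Open triangles mark libraries with 0 reads. Normal lies above nonunion and delayed in every panel, and preOP reaches the normal level for Col11a2 and Col13a1.

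Crtap, the cartilage-associated protein that forms the prolyl 3-hydroxylase complex with P3h1, was the processing gene that fell in both comparisons. It stood at 12.2, 16.6 and 14.9 CPM in nonunion, 13.3, 12.8 and 19.6 CPM in delayed, 53.9, 32.7 and 45.7 CPM in normal and 4.69, 5.57 and 6.53 CPM in preOP. The 4 groups were tight and ordered normal, then nonunion with delayed, then preOP, and nonunion overlapped delayed alone. Crtap fell in nonunion against normal, at -1.68 (SE 0.32, edgeR adjusted p = 0.033), and in delayed against normal, at -1.55 (SE 0.32, adjusted p = 0.026). The calls were lost without normal 1, normal 3 or delayed 1, the nonunion call also without any nonunion library and the delayed call without delayed 2 (adjusted p up to 0.13 and 0.092).

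P3h1, the enzyme of that complex, averaged 78.7 ± 22.2 CPM in nonunion, 118 ± 47.5 CPM in delayed, 188 ± 49.4 CPM in normal and 19.8 ± 2.56 CPM in preOP (SD, n = 3 each). Its nonunion libraries lay below all normal libraries, with a log2 fold change of -1.31 (SE 0.38, edgeR adjusted p = 0.10), and its delayed libraries overlapped normal (-0.67, SE 0.37, adjusted p = 0.29). Neither value passed, and the nonunion value passed with DESeq2, at -1.24 (adjusted p = 0.036).

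Markers of bone, cartilage and tendon cells outside the collagens moved with these genes. The 8 osteoblast markers, all in the files, summed to 22.7 to 73.8 CPM in nonunion, 62.4 to 92.4 CPM in delayed, 1490 to 1792 CPM in normal and 477 to 568 CPM in preOP. The 6 osteocyte markers summed to 2.98 to 10.3 CPM in nonunion, 1.23 to 4.13 CPM in delayed, 227 to 377 CPM in normal and 39.6 to 46.2 CPM in preOP. The 8 chondrocyte markers found of 10 summed to 4.62 to 54.2 CPM in nonunion, 16.3 to 32.9 CPM in delayed, 162 to 399 CPM in normal and 11.7 to 44.6 CPM in preOP. The 4 tenocyte markers found of 5 summed to 33.1 to 141 CPM in nonunion, 55.5 to 337 CPM in delayed, 569 to 822 CPM in normal and 175 to 285 CPM in preOP. No marker of these lists was at 0 in every library. In the osteoblast sum preOP stood between normal and the larger defects, and Col11a2 and Col13a1 were likewise high in preOP. In the chondrocyte sum preOP overlapped the larger defects, and Col2a1, Col9a1 and Col9a2 were likewise low in preOP. The part of these cells in the changes was not tested.

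The chains of the bulk fibrillar collagens I and III did not pass in any comparison among hematomas, and their mean CPM was highest in normal. Col1a1, the main chain of bone matrix, stood at 4232, 5249.6 and 5190.2 CPM in nonunion, 4782, 4164 and 15480 CPM in delayed, 26001, 16821 and 24394 CPM in normal and 1725, 1918 and 2097 CPM in preOP. No nonunion or delayed library reached the lowest normal library, and delayed 3 stood close to it while the other delayed libraries were near nonunion. The log2 fold change of Col1a1 was -2.27 in nonunion against normal (SE 0.67, edgeR adjusted p = 0.10) and -1.47 in delayed against normal (SE 0.65, adjusted p = 0.19).

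Col1a2, the other type I chain, stood at 4309.7, 3576 and 4035 CPM in nonunion, 4388, 3849 and 11972 CPM in delayed, 17051, 11015 and 16935 CPM in normal and 1382, 1432 and 1608 CPM in preOP. Delayed 3 lay inside the normal range here, and nonunion was below it. Its log2 fold change was -1.99 in nonunion against normal (SE 0.60, edgeR adjusted p = 0.11) and -1.17 in delayed against normal (SE 0.59, adjusted p = 0.24). With DESeq2 both type I chains passed in nonunion against normal, Col1a1 at -2.18 (adjusted p = 0.0014) and Col1a2 at -1.90 (adjusted p = 0.0025).

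Col3a1, the fibril of granulation tissue, stood at 5514, 11543 and 6127 CPM in nonunion, 5323, 6695 and 13026 CPM in delayed, 14628, 7596 and 12569 CPM in normal and 307, 516 and 1077 CPM in preOP. The 3 hematoma groups overlapped one another and all lay above preOP. The log2 fold change of Col3a1 was -0.67 in nonunion against normal (SE 0.59, edgeR adjusted p = 0.56) and -0.50 in delayed against normal (SE 0.59, adjusted p = 0.62). The 10 fibroblast markers found of 12, none a collagen, summed to 1777 to 3333 CPM in nonunion, 2154 to 3982 CPM in delayed and 3535 to 7858 CPM in normal. Postn, Lum and Cthrc1 lay below normal in every larger-defect library, as did Fap in delayed and Thy1 in nonunion. Pdgfra lay above, at 166.5 to 212 CPM in nonunion, 177 to 312 CPM in delayed and 103 to 158 CPM in normal. Dcn, Tnc, Mfap5 and Pi16 overlapped normal in both groups, Fap in nonunion and Thy1 in delayed.

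The make-up of the collagen RNA differed between groups. Shares were taken from the deposited TPM, which scale reads by transcript length and so allow levels of different genes to be set side by side. The total covers the 22 chains analysed here, without chains such as Col4a2, Col5a2, Col6a1 and Col12a1. By mean TPM, Col1a1, Col1a2 and Col3a1 were the 3 highest of the 36 genes and Serpinh1 was the fourth in every group, with Col3a1 first in nonunion and delayed, Col1a1 first in normal and Col1a2 first in preOP. Type I held 49.6%, 32.1% and 49.2% of the summed collagen TPM in nonunion, 55.8%, 47.5% and 59.2% in delayed, 66.4%, 69.6% and 68.2% in normal, and 80.1%, 73.8% and 64.4% in preOP. Every nonunion and delayed library was below every normal library, by 24.4 percentage points on average in nonunion and 13.9 in delayed. An exact two-sided permutation test of 3 libraries against 3 gave p = 0.10 for each, which is the smallest p this design allows, so that no share can pass 0.05.

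Type III held 33.9%, 45.8% and 35.3% in nonunion, 34.6%, 42.4% and 30.4% in delayed, 24.7%, 20.7% and 22.6% in normal, and 8.55%, 12.3% and 20.2% in preOP. The larger-defect libraries were all above normal, and normal was above preOP (exact permutation p = 0.10 each, the smallest possible). Col3a1 over Col1a1, as a ratio of TPM, was 1.61, 2.71 and 1.46 in nonunion, 1.37, 1.98 and 1.04 in delayed, 0.693, 0.555 and 0.633 in normal and 0.220, 0.332 and 0.633 in preOP. The TPM of Col3a1 exceeded that of Col1a1 in all 6 larger-defect libraries and in none of the other 6. Leaving out delayed 2 and nonunion 2, the libraries with the highest ratio in their groups, the remaining 4 still lay above normal.

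The type I chains themselves were not in the same ratio in all groups. Col1a1 over Col1a2, by TPM, was 0.743, 1.11 and 0.974 in nonunion, 0.825, 0.818 and 0.977 in delayed, 1.16, 1.16 and 1.09 in normal and 0.945, 1.01 and 0.988 in preOP. Delayed lay below normal in all libraries (exact permutation p = 0.10), and nonunion overlapped normal through nonunion 2 (exact permutation p = 0.20). Effective length enters TPM, and its part in these ratios was not tested.

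Smaller types moved within the total as well. Of these, type IV was carried mainly by Col4a1 here, and type V by Col5a1 and Col5a3. Type XI held 0.0161% to 0.382% in nonunion, 0.0481% to 0.111% in delayed, 0.741% to 1.29% in normal and 2.21% to 3.28% in preOP, so that its share was highest in bone although Col11a1 was highest in normal hematoma. Type IV held 3.49%, 8.94% and 5.04% in nonunion, 0.346% to 0.907% in delayed, 0.911% to 1.12% in normal and 2.00% to 2.54% in preOP, with nonunion above all others. Type VI, carried here by Col6a2 alone, held 4.38% to 5.22% in nonunion, 2.67% to 3.26% in delayed, 2.80% to 3.86% in normal and 2.58% to 4.40% in preOP. Type V held 2.07% to 4.28% in nonunion, 4.03% to 5.00% in delayed, 1.47% to 2.35% in normal and 1.15% to 2.37% in preOP, with delayed above normal in every library.

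**Figure D3:**
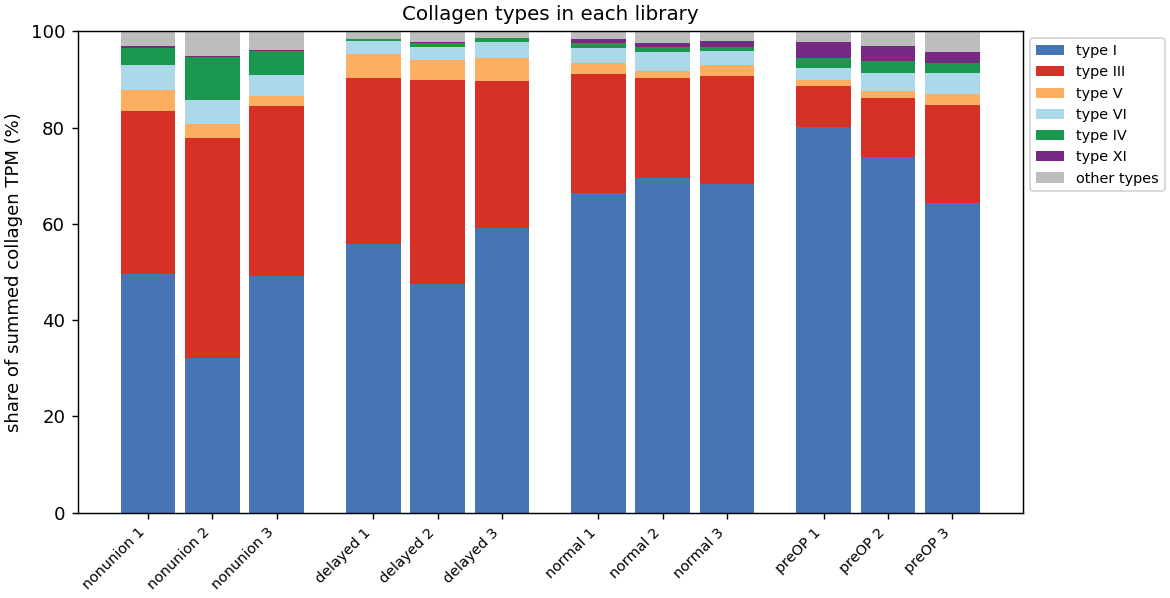
Share of the summed collagen TPM held by each collagen type, 1 bar a library, each bar adding up to 100%. Type I is the lower blue block, 32.1% to 59.2% in nonunion and delayed against 66.4% to 69.6% in normal, and the red block of type III is taller in nonunion and delayed than in normal.

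The type V chains, which set fibril width together with type I, did not pass. Col5a1 averaged 381 ± 190.0 CPM in nonunion, 795 ± 587 CPM in delayed, 819.8 ± 431 CPM in normal and 67.4 ± 49.7 CPM in preOP (SD, n = 3 each). Col5a3 averaged 342 ± 151 CPM in nonunion, 642 ± 419 CPM in delayed, 463 ± 146 CPM in normal and 24.3 ± 3.28 CPM in preOP (SD, n = 3 each). Hematoma groups overlapped for both chains, and delayed 3 was the highest library for each, at 1469 CPM for Col5a1 and 1126 CPM for Col5a3.

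Col6a2, a chain of the beaded filaments of type VI, stood at 629, 963 and 565 CPM in nonunion, 306, 319 and 1035 CPM in delayed, 1355, 1056 and 1163 CPM in normal and 69.1, 114 and 174 CPM in preOP. Normal was the highest group, with delayed 3 just under its lowest library. The log2 fold change was -0.81 in nonunion against normal (SE 0.52, edgeR adjusted p = 0.42) and -1.11 in delayed against normal (SE 0.52, adjusted p = 0.22), and neither passed.

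Of the fibril-associated collagens beside type IX, Col16a1 averaged 89.0 ± 16.9 CPM in nonunion, 140.3 ± 120.3 CPM in delayed, 324 ± 37.5 CPM in normal and 41.8 ± 34.1 CPM in preOP (SD, n = 3 each). Nonunion and delayed lay below normal in all libraries, with log2 fold changes of -1.94 (SE 0.56, edgeR adjusted p = 0.10) and -1.21 (SE 0.55, adjusted p = 0.20). The nonunion value passed without delayed 2 (adjusted p = 0.046), without delayed 3 (adjusted p = 0.035) and with DESeq2 (adjusted p = 0.019). The delayed value was -2.20 without delayed 3, its highest library at 278 CPM, and then passed (adjusted p = 0.034). Col14a1, which binds fibrils of soft tissue and tendon, averaged 117 ± 91.5 CPM in nonunion, 126 ± 77.2 CPM in delayed, 53.7 ± 11.8 CPM in normal and 13.0 ± 6.48 CPM in preOP, with overlapping hematoma groups and its highest values in nonunion 2 and delayed 2.

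Col7a1, the anchoring fibril of epithelia, stood at 6.66 to 16.8 CPM in nonunion, 8.35 to 29.7 CPM in delayed, 5.00 to 7.42 CPM in normal and 1.88 to 3.08 CPM in preOP. Every delayed library was above every normal library, with a log2 fold change of 1.74 (SE 0.53, edgeR adjusted p = 0.080) that did not pass. Without delayed 2 it was 2.13 (adjusted p = 0.029), and without delayed 2 and nonunion 2 together it was 2.19 (adjusted p = 0.015). It also passed with DESeq2 and with preOP libraries in the fit. Col8a1, a short-chain network collagen of vessel walls, averaged 24.3 ± 18.0 CPM in nonunion, 21.0 ± 1.86 CPM in delayed, 36.8 ± 16.9 CPM in normal and 12.5 ± 11.7 CPM in preOP (SD, n = 3 each), with overlap between all groups of hematoma. Col4a4 and the transmembrane collagen Col23a1 were scarce, at 0.245 to 2.93 CPM and 0.351 to 1.08 CPM over the 9 hematoma libraries, and neither passed among hematomas. Every nonunion library was above every normal library for Col23a1, with a log2 fold change of 0.71 (SE 0.52, adjusted p = 0.48).

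Among the prolyl 4-hydroxylases and lysyl hydroxylases, P4ha1, P4ha2 and Plod1 had their highest mean CPM in delayed, and P4ha3, Plod2 and Plod3 had theirs in normal. None of the 6 passed among hematomas. P4ha1, the catalytic subunit of prolyl 4-hydroxylase that stabilises the helix, stood at 309, 51.8 and 135 CPM in nonunion, 607, 291 and 673 CPM in delayed, 231, 117 and 253 CPM in normal and 44.8, 28.1 and 23.1 CPM in preOP. Every delayed library was above every normal library, and nonunion overlapped both. Its log2 fold change was 1.37 in delayed against normal (SE 0.65, edgeR adjusted p = 0.22), which did not pass, and -0.35 in nonunion against normal (SE 0.64, adjusted p = 0.80). The delayed value was 1.75 without delayed 2 and nonunion 2 (adjusted p = 0.032).

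P4ha2, its paralog, averaged 86.8 ± 46.7 CPM in nonunion, 286 ± 192 CPM in delayed, 135 ± 25.3 CPM in normal and 11.5 ± 0.755 CPM in preOP (SD, n = 3 each). Plod1, the lysyl hydroxylase of helical residues, averaged 177 ± 23.6 CPM in nonunion, 276 ± 121 CPM in delayed, 154 ± 24.9 CPM in normal and 48.6 ± 14.3 CPM in preOP. Delayed overlapped normal in both genes and neither passed, with log2 fold changes in delayed against normal of 1.08 for P4ha2 (SE 0.55, edgeR adjusted p = 0.25) and 0.84 for Plod1 (SE 0.36, adjusted p = 0.18). With delayed 2 and nonunion 2 left out, the delayed values were 1.47 for P4ha2 (adjusted p = 0.044) and 1.19 for Plod1 (adjusted p = 0.028).

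P4ha3, Plod2 and Plod3 did not stand higher in delayed by mean CPM. By mean TPM they did, at 36.9 in delayed against 35.2 in normal for P4ha3, 254 against 235 for Plod2 and 73.4 against 67.2 for Plod3. P4ha3 averaged 15.9 ± 13.0 CPM in nonunion, 36.6 ± 18.1 CPM in delayed and 41.7 ± 17.4 CPM in normal. Plod2, the lysyl hydroxylase of telopeptides, averaged 199.7 ± 209 CPM in nonunion, 616 ± 311 CPM in delayed and 651 ± 240.5 CPM in normal. Plod3, which also adds sugar to hydroxylysine, averaged 98.4 ± 34.1 CPM in nonunion, 129 ± 57.5 CPM in delayed and 147 ± 12.7 CPM in normal (SD, n = 3 each). Nonunion 2, the library rich in ribosomal RNA, was the lowest hematoma library for all of these, at 1.08 CPM for P4ha3 (7 reads) and 7.55 CPM for Plod2 (49 reads), where the other hematoma libraries held 20.5 to 56.6 CPM and 169 to 817 CPM.

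P4ha1, P4ha2, Plod1 and Serpinh1 were also set against the type I chain. These ratios were picked after the values had been seen and are given without a test. P4ha1 over Col1a1, by TPM, was 0.216, 0.0288 and 0.0768 in nonunion, 0.375, 0.208 and 0.130 in delayed, 0.0259, 0.0201 and 0.0299 in normal and 0.0766, 0.0434 and 0.0323 in preOP. Plod1 over Col1a1 was 0.0645 to 0.101 in nonunion, 0.0550 to 0.116 in delayed, 0.0103 to 0.0220 in normal and 0.0456 to 0.0646 in preOP. For these 2 ratios normal hematoma had the lowest values, apart from an overlap of nonunion 2 with normal for P4ha1. P4ha2 over Col1a1 was 0.0842, 0.0199 and 0.0456 in nonunion, 0.112, 0.0985 and 0.0884 in delayed, 0.0111, 0.0250 and 0.0148 in normal and 0.0167, 0.0162 and 0.0156 in preOP, so that normal overlapped both preOP and nonunion. Serpinh1 over Col1a1 was 0.354 to 0.882 in nonunion, 0.475 to 0.671 in delayed, 0.267 to 0.497 in normal and 0.178 to 0.220 in preOP, with preOP lowest.

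Promoters of P4ha2 and Plod2 are shown because they are the members with 2 copies of ACGTG, the core of the hypoxia response element, on 1 strand or the other in the 250 bases before the start, where Col26a1 has 1 copy. The capitals mark each copy, 2 in P4ha2 (chr10:38743644-38743893, plus strand) and 2 in Plod2 (chr8:101964068-101964317, plus strand), where it reads CACGT on the strand shown. The sequences are from RefSeq for build GRCr8.
P4ha2: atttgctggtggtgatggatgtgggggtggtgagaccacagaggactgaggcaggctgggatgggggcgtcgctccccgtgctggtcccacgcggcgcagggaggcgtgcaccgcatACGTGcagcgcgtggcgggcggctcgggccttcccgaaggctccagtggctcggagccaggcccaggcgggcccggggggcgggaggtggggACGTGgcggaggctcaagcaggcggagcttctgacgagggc
Plod2: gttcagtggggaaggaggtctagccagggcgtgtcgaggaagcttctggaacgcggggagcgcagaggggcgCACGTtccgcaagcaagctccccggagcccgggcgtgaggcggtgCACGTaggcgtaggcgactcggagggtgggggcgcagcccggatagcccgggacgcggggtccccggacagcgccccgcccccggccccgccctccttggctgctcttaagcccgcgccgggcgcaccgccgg
Over the window of 250 bases before to 50 after the start, ACGTG was found in 4 of 30 members (Col26a1, P4ha1, P4ha2 and Plod2) and in 19.3% of all promoters, so that the share among members was below that of all promoters. The copy in P4ha1 began 12 bases after its start. TGTGGT, a RUNX core, was found in 4 of 30 members and 17.3% of all promoters. These are matches of letters only.

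**Figure D4:**
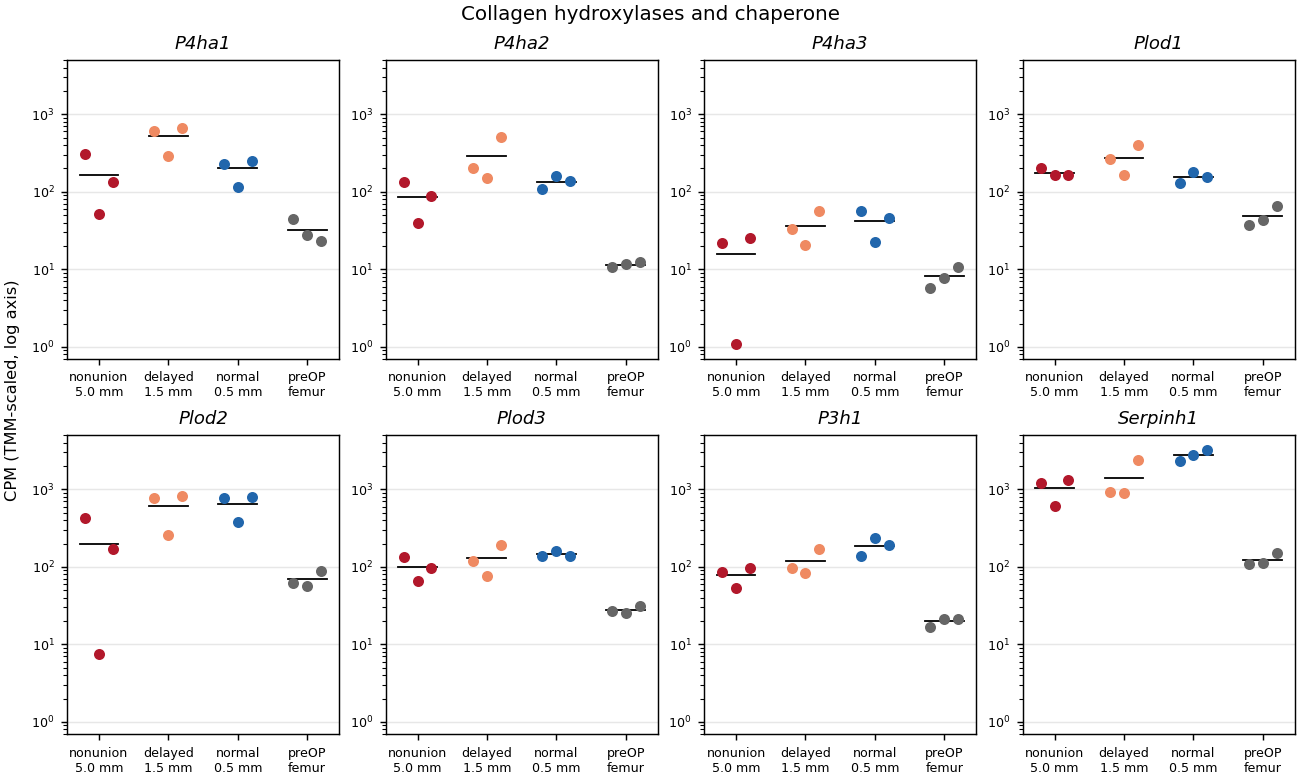
TMM-scaled CPM on a log axis for 7 collagen hydroxylase genes and the chaperone gene Serpinh1, 1 point a library and a black line at the mean of 3. Delayed has the highest mean for P4ha1, P4ha2 and Plod1, normal has it for Serpinh1 and P3h1, and nonunion 2 is the low point for Plod2 and P4ha3.

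Serpinh1 encodes HSP47, the collagen chaperone of the endoplasmic reticulum. It stood at 1221, 617 and 1331 CPM in nonunion, 935, 911 and 2385 CPM in delayed, 2303, 2810.4 and 3243 CPM in normal and 108, 112 and 152 CPM in preOP. Nonunion was below normal in all libraries and delayed overlapped it through delayed 3, as for Col1a2. The log2 fold change was -1.46 in nonunion against normal (SE 0.52, edgeR adjusted p = 0.16) and -0.99 in delayed against normal (SE 0.51, adjusted p = 0.26), and neither passed. Pcolce, which speeds up the removal of the procollagen C-propeptide, stood at 229, 393 and 414 CPM in nonunion, 200.0, 191 and 478 CPM in delayed, 348, 659 and 404 CPM in normal and 34.6, 39.7 and 54.3 CPM in preOP, with the hematoma groups overlapping.

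The lysyl oxidase-like genes, whose products cross-link collagen and elastin, did not pass among hematomas. Loxl1 averaged 67.7 ± 21.0 CPM in nonunion, 40.8 ± 23.3 CPM in delayed and 93.4 ± 9.86 CPM in normal. Loxl2 averaged 81.8 ± 40.6 CPM in nonunion, 236 ± 164 CPM in delayed and 133 ± 87.5 CPM in normal. Loxl3 averaged 21.0 ± 0.915 CPM in nonunion, 19.0 ± 8.16 CPM in delayed and 36.8 ± 4.11 CPM in normal, and Loxl4 averaged 19.2 ± 8.27 CPM in nonunion, 34.4 ± 14.4 CPM in delayed and 33.1 ± 20.0 CPM in normal (SD, n = 3 each). Only Loxl1 in delayed and Loxl3 in both larger-defect groups lay below normal in every library, with log2 fold changes of -1.20 (SE 0.41, edgeR adjusted p = 0.11) for Loxl1, and for Loxl3 of -0.88 in nonunion (SE 0.32, adjusted p = 0.17) and -0.96 in delayed (SE 0.32, adjusted p = 0.11). Without delayed 3 the delayed value of Loxl1 was -1.80 and passed (adjusted p = 0.043).

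Between nonunion and delayed, no member passed. Of 36 genes 0 were called, as were 0 of 12474 genes in all by edgeR, where 7 members and 881 genes had an unadjusted p below 0.05. DESeq2 called 178 genes, and among the members called Col15a1, Col18a1, Col26a1 and Col4a1 higher and Col2a1 lower in nonunion. All libraries of nonunion lay above delayed for 4 genes (5.6% of all genes), which were Col15a1, Col18a1, Col4a1 and Col26a1, and below for 3 (3.32% of all genes), which were Col9a2, Loxl2 and P4ha2. Over all genes the share without overlap was 8.91%. The median log2 fold change of the family was -0.56, beside -0.05 over all genes.

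Col15a1, a proteoglycan collagen of the vessel basement membrane, ranged from 145 to 586 CPM in nonunion, 35.2 to 99.6 CPM in delayed, 213 to 222 CPM in normal and 13.8 to 23.5 CPM in preOP. Its close relative Col18a1, the source of endostatin, ranged from 159 to 532 CPM in nonunion, 42.1 to 115 CPM in delayed, 221 to 289 CPM in normal and 17.1 to 27.0 CPM in preOP. Col4a1, of the basement membrane network, ranged from 783 to 3129 CPM in nonunion, 66.3 to 446 CPM in delayed, 572 to 923 CPM in normal and 97.3 to 154 CPM in preOP. For all 3 genes nonunion 2 was the highest library, delayed was the lowest hematoma group, and nonunion overlapped normal and reached above it.

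The log2 fold change in nonunion against delayed was 2.28 for Col15a1 (SE 0.54, edgeR adjusted p = 0.39), 2.08 for Col18a1 (SE 0.52, adjusted p = 0.43) and 2.79 for Col4a1 (SE 0.76, adjusted p = 0.45). It was, without delayed 2 and nonunion 2, 1.55 for Col15a1 (adjusted p = 0.27), 1.30 for Col18a1 (adjusted p = 0.34) and 1.90 for Col4a1 (adjusted p = 0.40). Against normal, delayed Col15a1 (-1.76, SE 0.53, adjusted p = 0.080) and Col18a1 (-1.83, SE 0.52, adjusted p = 0.065) did not pass. With nonunion 2 left out of the fit they were -1.65 (adjusted p = 0.041) for Col15a1 and -1.73 (adjusted p = 0.038) for Col18a1. Both also passed with DESeq2 and with preOP libraries in the fit. The 8 endothelial markers, all in the files, summed to 484, 1517 and 819 CPM in nonunion, 160.3, 353 and 219.5 CPM in delayed and 566, 579 and 544 CPM in normal, with nonunion 2 highest and delayed lowest, as for these genes. Of these markers, Kdr and Tek in delayed overlapped or passed normal through delayed 2. Cdh5 overlapped through delayed 2 and delayed 3, at 60.0 and 29.4 CPM against 10.8 CPM in normal 2. The others lay below normal in every delayed library. Nonunion 2 was also the library with the high adipocyte marker sum. The part of endothelial or other cells in the result was not tested.

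Col26a1, a collagen of uncertain role in this tissue, had 62, 3 and 140 reads in nonunion, 1, 4 and 1 reads in delayed, 23, 60 and 11 reads in normal and 21, 58 and 27 reads in preOP. Delayed was the low group. The log2 fold change was 4.93 in nonunion against delayed (SE 1.19, edgeR adjusted p = 0.42) and -4.19 in delayed against normal (SE 1.17, adjusted p = 0.063), which did not pass. The value in delayed against normal was -5.22 without delayed 2 and nonunion 2 (adjusted p = 0.029) and -4.13 without nonunion 2 alone (adjusted p = 0.039), and both passed. The same comparison also passed with DESeq2 and with preOP libraries in the fit.

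Against preOP femur, the hematoma groups carried more RNA of most of the family, and a few collagens went the other way. These comparisons set hematoma against bone, so tissue and injury cannot be told apart, and all 3 share the preOP libraries. In nonunion against preOP, 21 of 36 genes were called higher and 2 lower, where 13.5% of all 12846 genes were called higher, 14.9% lower and 28.4% in either direction. In delayed against preOP, 22 were called higher and 4 lower, beside 12.6% and 15.6% of all genes and 28.2% in either direction. In normal against preOP, 29 were called higher and 1 lower, beside 20.5% and 22.1% of all genes and 42.6% in either direction. The median log2 fold change of the family was 1.84 in nonunion, 2.19 in delayed and 2.97 in normal, beside -0.002, -0.03 and -0.09 over all genes in the same comparisons. Every library lay above preOP for 22 genes in nonunion, 23 in delayed and 30 in normal, beside 21%, 21.9% and 30.5% of all genes in those groups. Every library lay below preOP for 5 genes in nonunion, 5 in delayed and 1 in normal, beside 28%, 30.1% and 36.4% of all genes. In either direction, groups did not overlap for 49.1% (nonunion), 52% (delayed) and 66.9% (normal) of all genes.

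The genes that rose in all 3 hematoma groups included the chaperone, type III and V chains and prolyl hydroxylases. Serpinh1 rose by 3.09 on the log2 scale in nonunion (SE 0.47), 3.51 in delayed (SE 0.48) and 4.49 in normal (SE 0.50), with edgeR adjusted p of 0.0011, 0.00059 and 0.00015 in that order. Col5a3 rose by 3.81 in nonunion (SE 0.51), 4.72 in delayed (SE 0.53) and 4.25 in normal (SE 0.52). Col3a1 rose by 3.61 in nonunion (SE 0.63), 3.72 in delayed (SE 0.64) and 4.19 in normal (SE 0.65). P4ha2 rose by 2.91 in nonunion (SE 0.51), 4.63 in delayed (SE 0.55) and 3.55 in normal (SE 0.53), and P4ha1 rose by 2.37 in nonunion (SE 0.60), 4.03 in delayed (SE 0.65) and 2.65 in normal (SE 0.61). For each of these genes every hematoma library lay above every preOP library. The nonunion call of P4ha1 was lost without nonunion 1, preOP 2 or preOP 3 (adjusted p up to 0.062).

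Col15a1, Col18a1 and Col4a1 had their highest fold change against preOP in nonunion. Col15a1 rose by 4.06 in nonunion (SE 0.55), 1.71 in delayed (SE 0.50) and 3.45 in normal (SE 0.53). Col18a1 rose by 3.78 in nonunion (SE 0.52), 1.62 in delayed (SE 0.47) and 3.45 in normal (SE 0.51). Col4a1 rose by 3.70 in nonunion (SE 0.71, edgeR adjusted p = 0.0034) and by 2.48 in normal (SE 0.67, adjusted p = 0.013), and its 0.84 in delayed did not pass (SE 0.64, adjusted p = 0.36). The delayed calls of Col15a1 and Col18a1 were lost without delayed 3, preOP 1 or preOP 3, that of Col18a1 also without preOP 2 (adjusted p up to 0.072 for Col15a1 and 0.079 for Col18a1).

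Type I had smaller fold changes than type III against bone. Col1a1 rose by 2.09 in delayed (SE 0.54, edgeR adjusted p = 0.015) and by 3.55 in normal (SE 0.58, adjusted p = 0.00091), and its value of 1.35 in nonunion did not pass (SE 0.53, adjusted p = 0.079), although it passed without delayed 2 (adjusted p = 0.044) or delayed 3 (adjusted p = 0.030). Col1a2 rose in all 3, by 1.43 in nonunion (SE 0.48, adjusted p = 0.045), 2.19 in delayed (SE 0.49) and 3.35 in normal (SE 0.51). The nonunion call of Col1a2 was lost with any preOP library, normal 1, normal 3, nonunion 1 or nonunion 3 left out (adjusted p up to 0.14), and the delayed call of Col1a1 without delayed 3 or any preOP library (adjusted p up to 0.065).

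Col11a2 and Col13a1 fell below the level of bone in both larger-defect groups. Col11a2 fell in nonunion, at -5.58 (SE 0.53, edgeR adjusted p = 0.00011), and in delayed, at -4.71 (SE 0.49, adjusted p = 0.00016), against a difference of 0.62 in normal that did not pass (SE 0.42, adjusted p = 0.26) but did so without delayed 2 and nonunion 2, at 0.74 (adjusted p = 0.038). Col13a1 fell in nonunion, at -4.59 (SE 0.77, adjusted p = 0.0018), and in delayed, at -5.85 (SE 0.81, adjusted p = 0.00062), against 0.42 in normal (SE 0.63, adjusted p = 0.61). The difference between those groups is the comparison with normal hematoma given above. Col23a1 fell in delayed, at -1.73 (SE 0.46, adjusted p = 0.016), and in normal, at -2.05 (SE 0.47, adjusted p = 0.0054), where it held 0.351 to 0.490 CPM in normal and 1.18 to 2.17 CPM in preOP. Col26a1 fell by 4.25 in delayed (SE 1.11, adjusted p = 0.015). These delayed calls were lost without delayed 1, delayed 3 or preOP 2, that of Col23a1 also without preOP 3 (adjusted p up to 0.092 for Col23a1 and 0.064 for Col26a1).

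Of the cartilage collagens, Col2a1, Col9a1, Col9a2 and Col11a1 rose over bone in normal hematoma, and Col11a2, given above, did not pass. Col2a1 rose by 6.56 in normal (SE 1.47, edgeR adjusted p = 0.0049), Col9a1 by 3.41 (SE 0.97, adjusted p = 0.016, lost without normal 3 or preOP 3, with adjusted p up to 0.065), Col9a2 by 2.62 (SE 0.57, adjusted p = 0.0041) and Col11a1 by 2.78. None of these 4 passed in nonunion or delayed against preOP. Col11a1 lay below preOP in every delayed library, at -2.14 (SE 0.89, adjusted p = 0.096), and was called lower without nonunion 2, at -1.92 (adjusted p = 0.014), without delayed 2 and nonunion 2, at -1.94 (adjusted p = 0.023), and with DESeq2, at -2.02 (adjusted p = 0.048). Without delayed 2, Col2a1 was lower in nonunion than in preOP, at -2.63 (adjusted p = 0.021), as was Col9a1, at -3.81 (adjusted p = 0.022). Of 79 calls against preOP in all, 63 held in all 19 alternatives, and the 16 that did not were lost with 1 library left out, among other settings. Without delayed 2 and nonunion 2, 24 members were higher and 5 lower in nonunion, 24 and 6 in delayed, and 32 and 1 in normal. Of all 13012 genes tested there, 5425 were called in nonunion, 5414 in delayed and 7560 in normal. In the main fit these counts were 3648, 3622 and 5466 of 12846 genes.

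**Figure D5:**
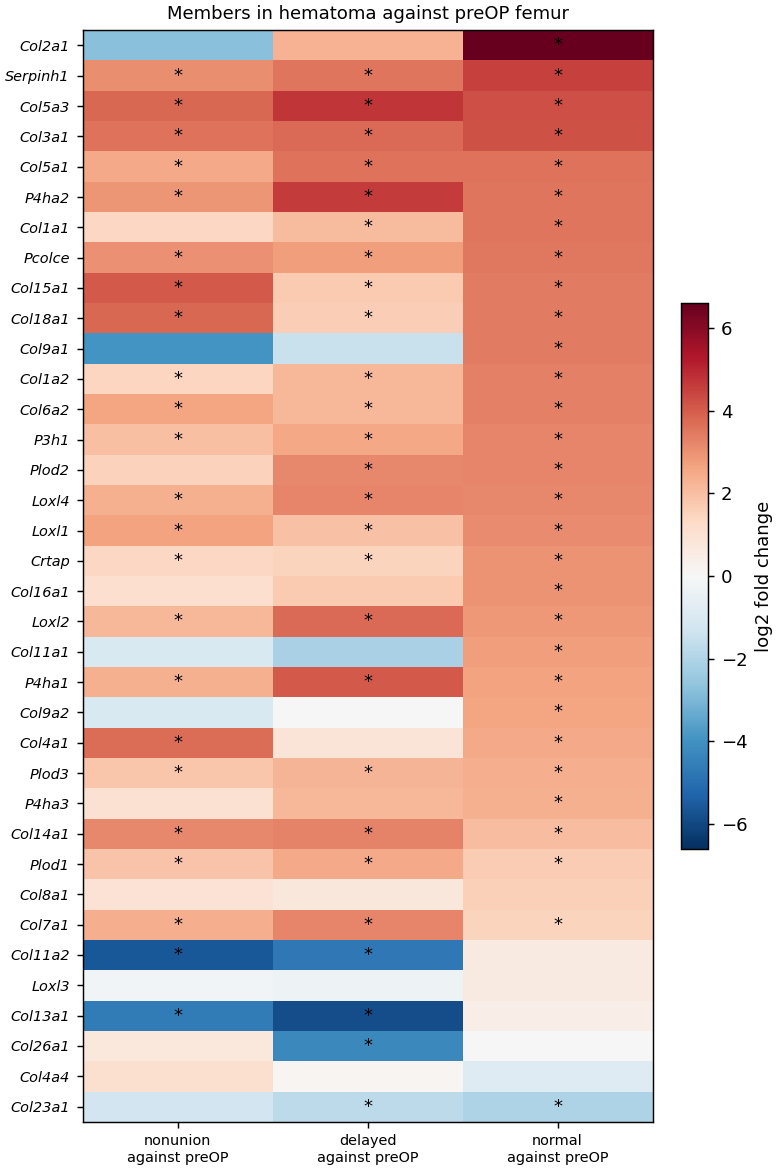
Log2 fold change of all 36 genes in nonunion, delayed and normal hematoma against preOP femur, from blue (lower) to red (higher), with a star where the adjusted p is below 0.05. Genes run from the highest value in normal at the top, and Col11a2 and Col13a1 are dark blue in nonunion and delayed and pale in normal.

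Other genes of the collagen pathway were looked at as a list of secretory and modifying factors, propeptide proteases, receptors, collagen-cleaving proteases and transcription factors. Of 54 in the files 49 passed the filter. In nonunion against normal 5 were called lower and 0 higher (10.2%), in delayed against normal 8 lower and 0 higher (16.3%), and in nonunion against delayed 0, beside the shares of all genes given above. Their median log2 fold change was -0.82, -0.74 and -0.29 in these 3 comparisons. Leaving out delayed 2 and nonunion 2, the counts were 10 lower and 1 higher, 12 lower and 1 higher, and 0 lower and 3 higher. Of all 12627 genes tested there, 429, 2076 and 60 were called in the same order.

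Of 9 transcription factors tested, 2 were called lower in nonunion and 5 in delayed against normal. Sox9, which in mouse drives Col2a1 and Col11a2, fell in nonunion against normal, at -2.62 (SE 0.43, edgeR adjusted p = 0.023), and in delayed against normal, at -2.74 (SE 0.43, adjusted p = 0.012). Dlx5, an osteoblast factor, fell in nonunion, at -4.28 (SE 0.48, adjusted p = 0.0057), and in delayed, at -5.82 (SE 0.52, adjusted p = 0.0016). Sp7, an osteoblast factor, was at -4.93 in nonunion (SE 1.22, adjusted p = 0.068) and fell by 5.94 in delayed (SE 1.28, adjusted p = 0.031). Scx, a tendon factor, was at -2.66 in nonunion (SE 0.97, adjusted p = 0.17) and fell by 4.12 in delayed (SE 1.04, adjusted p = 0.048). Foxc2 was at -3.64 in nonunion (SE 0.79, adjusted p = 0.050, just above the threshold) and fell by 3.36 in delayed (SE 0.75, adjusted p = 0.034). None of these factors passed in nonunion against delayed.

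P3h4, a scaffold of the lysyl hydroxylase complex in mouse, was the modifying gene that fell in both. It stood at 31.1, 15.7 and 39.6 CPM in nonunion, 33.9, 32.9 and 59.2 CPM in delayed, 151, 151 and 147 CPM in normal and 6.27, 7.50 and 9.55 CPM in preOP, so that normal was tight and far above the rest. It fell in nonunion against normal, at -2.43 (SE 0.40, edgeR adjusted p = 0.023), and in delayed against normal, at -1.84 (SE 0.39, adjusted p = 0.029). Kdelr3, a retrieval receptor of the endoplasmic reticulum, fell by 2.16 in nonunion (SE 0.40). Mmp13, the collagenase of hypertrophic cartilage, stood at 3.92, 0.771 and 3.68 CPM in nonunion, 5.60, 2.58 and 5.97 CPM in delayed, 1137, 204 and 413 CPM in normal and 15.9, 24.5 and 14.2 CPM in preOP, with normal highest and preOP above both larger-defect groups. Against preOP it fell in nonunion, at -2.64 (SE 0.68, adjusted p = 0.014), and in delayed, at -1.94 (SE 0.66, adjusted p = 0.047). The receptor gene Adgrg1, whose product binds type III collagen, fell by 2.03 in delayed against normal (SE 0.50, adjusted p = 0.045), and its libraries in nonunion, 54.1 to 116 CPM, lay above those in normal, 33.4 to 52.2 CPM, without passing (1.15, SE 0.49, adjusted p = 0.22).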

How the data were processed

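Total RNA of rat femur and fracture hematoma had been extracted with Trizol and made into TruSeq libraries from 1 ug, per the labels' protocols. The submitters' processing notes name bcl2fastq 1.8.4, FastQC, Trimmomatic, Salmon and the build rn6. The deposited files give estimated counts, effective length (other) and TPM per RefSeq transcript, per the file headers. Strand settings and other versions are not stated there.

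Of 18321 transcripts, 17367 were named to 16425 symbols with the RefSeq gene table and 954 kept their accession, making 17379 features. Counts were rounded and summed by symbol. The main test was edgeR 4.0.16 (R 4.3.3) with TMM scaling, filterByExpr by group, a two-sided quasi-likelihood test and Benjamini-Hochberg adjustment over all genes. A call is an adjusted p below 0.05. The 9 hematoma libraries entered the comparisons among hematomas (12474 genes, 6 residual degrees of freedom), and all 12 libraries those with preOP (12846 genes, 8 residual degrees of freedom). SE is the log2 fold change over the root of F. CPM use the TMM scaling of all 12 libraries. The steps were tested on simulated data.

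Genes were named by a rule: every member by name, and values in each library for members called among hematomas and for the 6 highest by mean TPM in each group. The members, the lists of markers and partners and the libraries doubted were chosen with earlier results of these data known. Alternatives were DESeq2 1.42.0, its size factors, no low-count filter, a replicate block, effective lengths as offsets, other libraries in the fit, omission of delayed 2 and nonunion 2, and of each library in turn. Library totals ranged from 16808993 to 24325162 estimated reads. A floor of 3 reads equals 0.115 to 0.462 CPM per library, and floors and intervals cover counting error only. Promoters are from RefSeq, build GRCr8, with 30 of 36 members matched.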

Additional observations from a re-analysis of the deposited data

How the results depend on the processing

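No fold change of a member that was called reversed its sign under any alternative run. The 6 calls in nonunion against normal and the 6 in delayed against normal were also made under DESeq2 size factors and with effective lengths as offsets. DESeq2 size factors moved the median of all genes to 0.10 in delayed against normal, from 0.02. DESeq2 called 11 members in nonunion against normal, 11 in delayed against normal and 5 in nonunion against delayed. With preOP libraries also in the fit, 10 members were called in nonunion against normal and 10 in delayed against normal. Omission of delayed 2 and nonunion 2 gave 12 in delayed against normal. Leaving out 1 library at a time gave 1 to 7 in nonunion against normal, 2 to 9 in delayed against normal, 0 in nonunion against delayed, and 19 to 26, 20 to 29 and 25 to 31 in nonunion, delayed and normal against preOP. The cause of these moves was not tested.

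The replicate block gave 2 members in nonunion against normal and 2 in delayed against normal. The numbers were not taken to pair libraries: over 18 pairs with the same number the correlation of deviations ran from -0.21 to 0.21, 4 of 18 were over 0.1, and 3 of 12 libraries were closest to their own number.

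Over all genes, 296 were called in nonunion against normal, 148 with the replicate block, 1272 with DESeq2 and 992 with all 12 libraries fitted. In delayed against normal the counts were 889, 433, 1996 and 1821 in the same order, and 2076 without delayed 2 and nonunion 2. With 1 library left out in turn, 23 to 446 genes were called in nonunion against normal and 176 to 1433 in delayed against normal. In nonunion against delayed 0 or 1 was called. Against preOP, 2338 to 4407 were called in nonunion, 2292 to 4561 in delayed and 3952 to 6389 in normal.

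Taken from summed reads in place of TPM, mean collagen shares were 1.37% (normal) and 2.83% (preOP) for type IV, 5.44% (delayed) for type V, 3.47% (nonunion), 2.04% (delayed), 2.26% (normal) and 2.47% (preOP) for type VI, 0.00227% (nonunion) and 0.0264% (preOP) for type IX, and 0.110% (delayed), 1.42% (normal) and 3.88% (preOP) for type XI. The other group means moved by less than 1 SD between libraries. Genes with under 10 reads in a library, such as Col9a1 and Col26a1 in delayed, are limited by depth.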
